A study of Homo sapiens with 9 samples.

Results

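The genes examined were 10 that make up the calcium and phosphatase arm upstream of the NFAT transcription factors. They were the calcineurin catalytic subunits PPP3CA, PPP3CB and PPP3CC, the regulatory subunit PPP3R1, the calcineurin regulators RCAN1 and RCAN3, the calcium sensors STIM1 and STIM2, and the calcium channel subunits ORAI1 and ORAI2. They were taken by gene symbol, with no measured value in the rule. All 10 were found among the 58735 gene identifiers of the count table, and all 10 were among the 14975 genes that passed the filter on low counts and were tested.

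The data were RNA-seq counts from THP-1, a monocyte-like cell line long established from human acute myeloid leukaemia and carrying the MLL-AF9 fusion. Every group was spinoculated with lentivirus packaged in 293T cells and put under puromycin from 24 hours, and polyadenylated RNA was taken at 48 hours. The control group carried a non-targeting shRNA (SHX2), and the shRNA-143 and shRNA-146 groups each carried a different shRNA against NFATC2, with 3 libraries in each group, numbered 1 to 3. The labels name no calcium-raising stimulus and no calcineurin inhibitor, so the levels are those of cultured, transduced and puromycin-selected cells of a single line, and the comparison asks how these genes stood when NFATC2 RNA was lowered.

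Store-operated calcium entry begins when calcium leaves the endoplasmic reticulum. STIM proteins in its membrane sense the loss, gather at contacts with the plasma membrane and open channels built of ORAI proteins. The calcium that enters binds calmodulin, calmodulin activates calcineurin, and calcineurin removes phosphates from NFAT proteins, which then move to the nucleus. RCAN proteins bind calcineurin and regulate it, and a short RCAN1 isoform, made from an internal promoter, is a known target of NFAT itself.

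The internal RCAN1 promoter is where the arm is known to meet its output, so its matches to the core NFAT motif are shown here. The RefSeq promoter windows (GRCh38.p14) gave at least 1 start for 6 of the 10 genes, and the 250 bases before each start were searched for GGAAA on both strands, so that TTTCC counts as a match; the motif overlaps those of other factors. The window before the internal RCAN1 start at position 34526822 of chromosome 21, minus strand, held 4 matches. Each is given below 5′ to 3′ on the gene's strand with 10 bases on either side and the match in capitals, in order from the farthest to the nearest to the start.
RCAN1 chr21:34527042-34527066: tcagctgtttTTTCCattctcccca
RCAN1 chr21:34527007-34527031: attagcatagGGAAAatgactaagg
RCAN1 chr21:34526977-34527001: acgtcacctcTTTCCagtagaaact
RCAN1 chr21:34526872-34526896: gcacttttttTTTCCccagggagtg
The farthest of these begins its motif 234 bases before the start and the nearest 64 bases before it. Of all 35116 RefSeq windows of this length, 55.6% held at least 1 match and 657 (1.87%) held at least 4. The windows of the other RCAN1 starts, of STIM2 and of ORAI2 held 0 matches, and those of PPP3R1, RCAN3 and STIM1 held 0 or 1 each. Of the 250 bases of the RCAN1 window with 4 matches, 141 lie in annotated exons of RCAN1. A match is a description of the letters and no evidence of binding. The deposited counts add up all RCAN1 transcripts of a library, so the short isoform cannot be read separately.

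The libraries held 40047459 to 44669709 counts and 18485 to 21723 genes with a count, and the 10 genes had from 215 counts (PPP3CC in control replicate 3) to 5058 (PPP3CB in shRNA-146 replicate 1). Levels are CPM, counts scaled to a common library size, after TMM scaling, given as mean ± SD with n = 3 libraries per group. The targeted gene NFATC2 stood at 22.5 ± 8.56 CPM in control (12.7 in control replicate 1), 5.28 ± 3.29 under shRNA-143 and 6.24 ± 3.44 under shRNA-146. Same-numbered libraries of the 3 groups deviated together, with correlations of 0.252 to 0.758 for the 9 pairs. The 18 pairs with unlike numbers ran from -0.678 to 0.535, so the 2 ranges overlapped. Each result was fitted without and with the replicate number as a block. Fold changes are log2 ± SE, and p-values, adjusted over all tested genes, come from the quasi-likelihood test of edgeR. NFATC2 changed by -2.27 ± 0.24 and -1.96 ± 0.23 with the block (adjusted p = 0.00168 and 0.00435), and without it the values were -2.09 ± 0.64 and -1.85 ± 0.63 (adjusted p = 0.497 and 0.464); when the libraries numbered 1 were left out they were -1.93 ± 0.19 and -1.77 ± 0.19 without the block (adjusted p = 0.000389 and 0.000995). The 3 libraries numbered 1 stood apart. Compared over genes with the rest of their group, they gave chi-square values of 78.3 to 389 for each degree of freedom. Libraries 2 and 3 gave 20.3 to 62.4. For each of the 10 genes other than PPP3CC and PPP3R1, a fitted change against control is also given without the libraries numbered 1. Nothing in the labels says that replicates came from separate cultures, so p-values reflect how far these libraries spread, which may be technical. All 9 myeloid markers examined were detected, summing to 751 to 1071 CPM per library. Of the T cell markers, CD3D, CD3E, CD3G and CD2 were not listed with a count and TRAC reached at most 0.123 CPM. Some genes listed under other types were detected. PECAM1, listed as endothelial, was at 84.1 to 235 CPM, while VWF of the same list reached at most 0.167 CPM and CDH5 was not listed with a count. PAX5, listed for B cells, was at 0.676 to 9.33 CPM, while MS4A1 was not listed with a count. GP9, listed for megakaryocytes, was at 0.686 to 3.72 CPM. The part of these genes in the results was not tested. In bulk RNA, fewer cells of a type and less RNA per cell cannot be told apart.

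In control cells the channel subunit ORAI1 and the abundant calcineurin subunits led, and the sensors and regulators followed. Between genes, levels are compared as CPM per kilobase of deposited gene length. ORAI1 was highest at 24.3 ± 2.76 CPM per kilobase, followed by PPP3CB at 16.2 ± 1.86 and PPP3R1 at 14.8 ± 1.80, whose ranges over libraries overlapped, and then by PPP3CA at 10.8 ± 0.840. STIM1 stood at 5.61 ± 0.827, RCAN1 at 4.29 ± 0.246 and ORAI2 at 3.17 ± 0.823 CPM per kilobase. The lowest were RCAN3 at 2.48 ± 0.0985, PPP3CC at 2.13 ± 0.384 and STIM2 at 1.86 ± 0.375, and from ORAI2 down each gene's range overlapped that of the next. Per kilobase, ORAI1 was above ORAI2 and STIM1 above STIM2 in every library. The ORAI order depends on the deposited lengths, 2262 bases for ORAI1 and 11103 for ORAI2, which cover all annotated exons. In CPM, ORAI2 was above ORAI1 in shRNA-143 replicates 2 and 3 and in shRNA-146 replicates 2 and 3, and below it in the other libraries. Which exons the cells used was not tested. Their missing relatives were low: RCAN2 had 0 counts in 8 libraries and 4 in shRNA-143 replicate 1, and ORAI3 stood at 1.84 ± 0.456 CPM per kilobase in control.

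**Figure D1:**
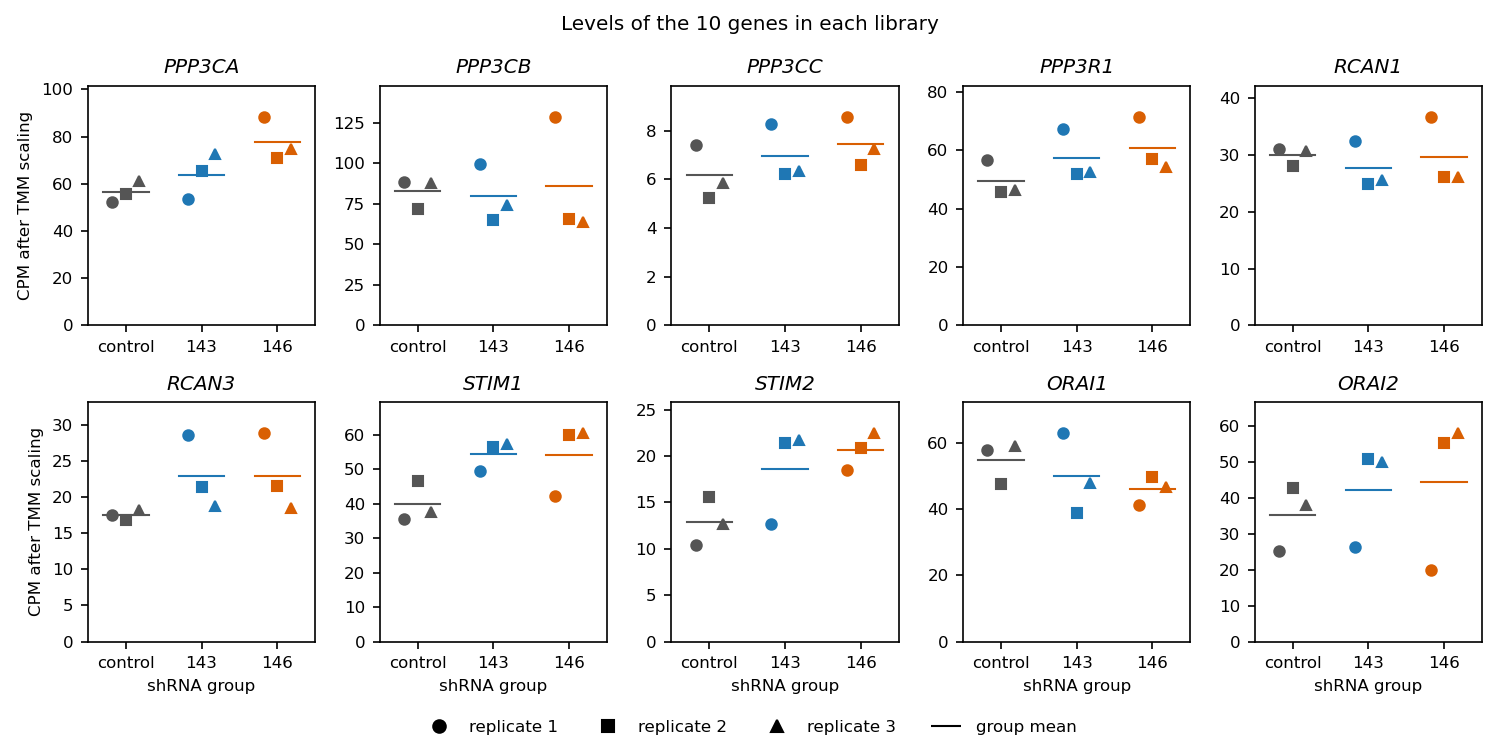
Level of each of the 10 genes in each library (y axis, CPM after TMM scaling, from 0) by shRNA group (x axis); points are libraries, shaped by replicate number, and lines are group means (n = 3). STIM2 with shRNA-146 (18.6 to 22.5 CPM) lies above all control libraries (10.4 to 15.6 CPM), and ORAI2 is lowest in the library numbered 1 of every group.

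The catalytic subunits of calcineurin did not change past the threshold in either knockdown. PPP3CA (ENSG00000138814, chromosome 4, 101023409 to 101348278, minus strand, hg38), the alpha isoform, was at 52.5, 55.6 and 61.2 CPM in control replicates 1 to 3, at 53.4, 65.2 and 72.8 under shRNA-143 and 88.2, 70.9 and 74.6 under shRNA-146. All shRNA-146 libraries were above all control libraries, while the shRNA-143 libraries overlapped control. The log2 fold change for shRNA-146 was 0.47 ± 0.18 without the block (adjusted p = 0.526) and 0.47 ± 0.15 with it (adjusted p = 0.0988), and for shRNA-143 it was 0.17 ± 0.15 with the block (adjusted p = 0.546). The shRNA-146 value was the gene's largest difference and still short of the threshold. Its same-numbered log2 ratios were 0.75, 0.35 and 0.29, the largest for number 1. With the libraries numbered 1 left out and the block kept, the changes were 0.32 for shRNA-146 and 0.25 for shRNA-143 (adjusted p = 0.0811 and 0.170). The 2 shRNAs differed by 0.30 ± 0.15 with the block (adjusted p = 0.549).

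PPP3CB (ENSG00000107758, chromosome 10, 73436428 to 73496024, minus strand), the beta isoform, varied with the replicate number more than with the shRNA. It was at 88.2, 71.7 and 87.9 CPM in control, 99.8, 65.2 and 74.4 under shRNA-143 and 128, 65.5 and 63.8 under shRNA-146. The libraries numbered 1 held 88.2 to 128 CPM and all others 63.8 to 87.9, with no overlap. PPP3CC, RCAN1 and ORAI2 also split by this number, and the share of all tested genes that did so was not counted. With the block its changes were -0.08 ± 0.17 and -0.01 ± 0.17 (adjusted p = 0.829 and 0.976). The same-numbered log2 ratio of shRNA-146 over control was 0.54 for number 1 and -0.13 and -0.46 for numbers 2 and 3, and the fitted change became -0.29 with the block when the libraries numbered 1 were left out (-0.18 for shRNA-143), so no direction can be given.

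PPP3CC (ENSG00000120910, chromosome 8, plus strand), the gamma isoform known best from testis, was the scarcest catalytic subunit. It shares 298 of its 2899 exon bases with an annotated gene on the opposite strand. PPP3CC was at 7.41, 5.25 and 5.85 CPM in control, 8.28, 6.22 and 6.34 under shRNA-143 and 8.55, 6.60 and 7.23 under shRNA-146. Its libraries numbered 1 (7.41 to 8.55 CPM) lay above all others (5.25 to 7.23 CPM). Each knockdown library was above its same-numbered control, but the groups overlapped and the changes with the block, 0.17 ± 0.16 and 0.28 ± 0.16, did not pass (adjusted p = 0.570 and 0.308). In control PPP3CC made up 7.29% ± 1.09 of the summed catalytic subunits per kilobase, PPP3CA 37.2% ± 3.32 and PPP3CB 55.5% ± 2.43. With shRNA-146 the PPP3CA share was 44.6% ± 6.11 and the PPP3CB share 47.8% ± 7.11, and both ranges overlapped control. The ratio of PPP3CA to PPP3CB stayed below 1 in all 3 control libraries (0.581 to 0.758) and was over 1 in shRNA-146 replicates 2 and 3 (1.06 and 1.14) but not in replicate 1 (0.672).

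PPP3R1 (ENSG00000221823, chromosome 2, 68178857 to 68256237, minus strand) encodes the calcium-binding regulatory subunit, calcineurin B, that every catalytic isoform needs. It was at 56.7, 45.9 and 46.5 CPM in control, 67.5, 52.1 and 52.7 under shRNA-143 and 71.4, 57.2 and 54.3 under shRNA-146. Each knockdown library again exceeded its same-numbered control, by log2 ratios of 0.18 to 0.33, while the groups overlapped. With the block the changes were 0.21 ± 0.12 and 0.29 ± 0.12 (adjusted p = 0.360 and 0.175). The sum of the catalytic subunits over PPP3R1, per kilobase, was 1.99 ± 0.236 in control, 1.79 ± 0.168 under shRNA-143 and 1.88 ± 0.224 under shRNA-146, with overlapping ranges. By number, the ratio was below that of the same-numbered control in 3 of 3 shRNA-143 libraries (1.63 against 1.78, 1.77 against 1.95 and 1.96 against 2.24) and in 2 of 3 shRNA-146 libraries, and it was given no test. PPP3R1 shares 462 exon bases with 1 annotated gene on the same strand and 700 with 1 on the opposite strand. The sources used here do not say whether reads were counted by strand, and strand would not separate the first of these.

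Neither calcineurin regulator changed past the threshold. RCAN1 (ENSG00000159200, chromosome 21, 34513142 to 34615142, minus strand), which carries the internal promoter shown above, was at 31.2, 28.0 and 30.8 CPM in control, 32.5, 24.8 and 25.6 under shRNA-143 and 36.7, 26.1 and 26.2 under shRNA-146. The changes with the block were -0.13 ± 0.14 and -0.04 ± 0.14 (adjusted p = 0.630 and 0.910). Its libraries numbered 1 (31.2 to 36.7 CPM) lay above all others (24.8 to 30.8 CPM), and in both knockdowns the same-numbered ratio was positive for number 1 and negative for numbers 2 and 3. With the libraries numbered 1 left out and the block kept, the changes were -0.21 and -0.17 (adjusted p = 0.251 and 0.355).

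RCAN3 (ENSG00000117602, chromosome 1, 24502351 to 24541040, plus strand), the less abundant paralog, was at 17.5, 16.9 and 18.3 CPM in control, 28.6, 21.4 and 18.8 under shRNA-143 and 28.8, 21.5 and 18.5 under shRNA-146. All 6 knockdown libraries were above all 3 control libraries. The same-numbered log2 ratios were 0.70, 0.34 and 0.04 for shRNA-143 and 0.71, 0.35 and 0.02 for shRNA-146, so the pairs numbered 3 hardly differed. The changes with the block were 0.35 ± 0.16 and 0.36 ± 0.16 (adjusted p = 0.242 and 0.212), short of the threshold, and with the libraries numbered 1 left out they were 0.20 and 0.19 (adjusted p = 0.350 and 0.359). The ratio of RCAN3 to RCAN1 per kilobase was 0.556 to 0.595 in control, 0.725 to 0.869 under shRNA-143 and 0.700 to 0.815 under shRNA-146, and neither knockdown range reached that of control. This ratio was picked out among the 5 drawn after its values were seen and was given no test. RCAN3 shares 1075 exon bases with a long non-coding RNA gene on the opposite strand, which could not be told apart from it without strand.

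**Figure D2:**
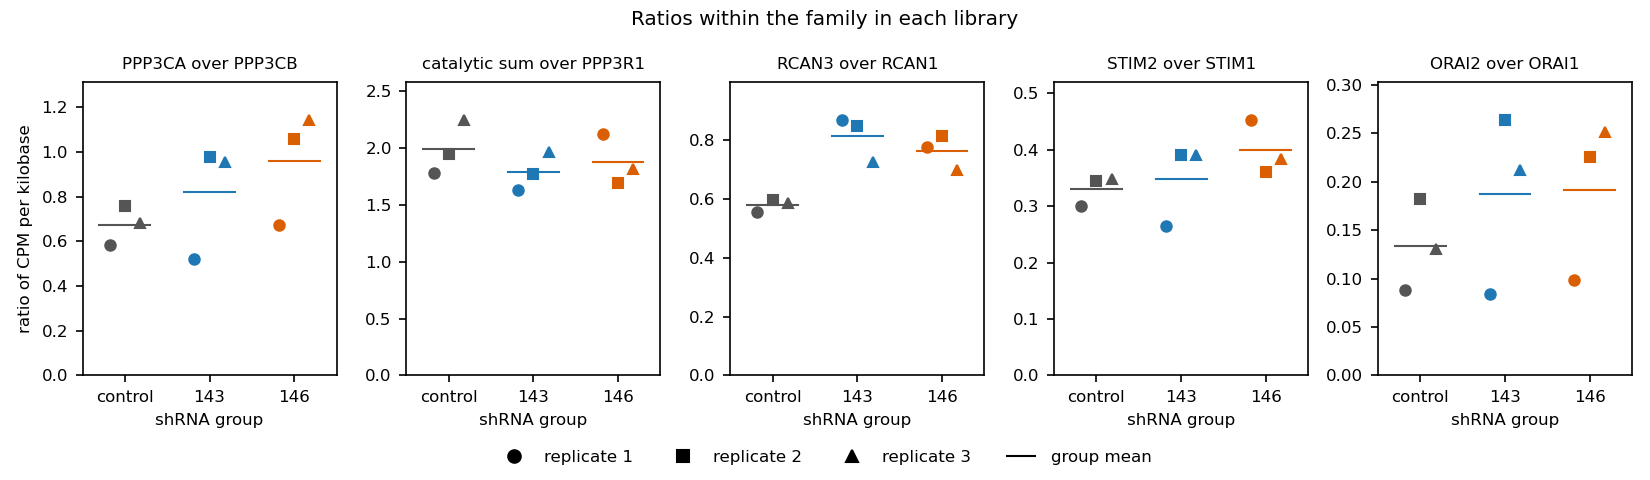
Ratios within the family in each library (y axes, ratio of CPM per kilobase, from 0) by shRNA group (x axis); points are libraries, shaped by replicate number, and lines are group means (n = 3). The RCAN3 over RCAN1 ratio lies at 0.556 to 0.595 in control and at 0.700 or above in all knockdown libraries, and the other ratios overlap between control and at least 1 knockdown group.

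The calcium sensor STIM2 was the member with the largest difference in the arm, and the one that passed the threshold in the fit with the block. STIM2 (ENSG00000109689, chromosome 4, 26857678 to 27025381, plus strand) encodes the sensor that responds to small losses of stored calcium and keeps resting calcium steady. It was at 10.4, 15.6 and 12.7 CPM in control, 12.7, 21.4 and 21.7 under shRNA-143 and 18.6, 20.9 and 22.5 under shRNA-146. All shRNA-146 libraries were above all control libraries, whereas shRNA-143 replicate 1 lay within the control range. With the block STIM2 rose 1.62-fold with shRNA-146 (0.70 ± 0.16, adjusted p = 0.0399), and the value with shRNA-143 was 1.43-fold (0.51 ± 0.16, adjusted p = 0.116). The mean of both shRNAs was higher by 0.60 ± 0.14 (adjusted p = 0.0375), with 3 of 3 same-numbered pairs above control for each shRNA. The 2 shRNAs did not differ past the threshold (0.18 ± 0.16, adjusted p = 0.753), so the call with one of them is not a difference between them.

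Without the block STIM2 did not pass, at 0.68 ± 0.26 for shRNA-146 (adjusted p = 0.507) and 0.60 ± 0.23 for the mean of both (adjusted p = 0.458). With the block the fitted value for shRNA-146 lay between 0.56 and 0.81 when any single library was left out. The call was lost, at adjusted p = 0.0639 to 0.193, when any of control replicates 1, 2 and 3, shRNA-143 replicates 2 and 3 or shRNA-146 replicates 2 and 3 was left out, and the call for the mean was lost, at adjusted p = 0.101 to 0.237, without any of the first 5 of these. Leaving out the 3 libraries numbered 1 gave 0.62 for shRNA-146, with adjusted p = 0.0424 without the block and 0.0223 with it. For shRNA-143 it gave 0.62, with adjusted p = 0.0553 without the block and 0.0260 with it. STIM2 shares no exon bases with another annotated gene.

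STIM1 (ENSG00000167323, chromosome 11, 3854527 to 4093210, plus strand), the main sensor for the opening of ORAI1, showed a smaller difference in the same direction. It was at 35.7, 46.7 and 37.6 CPM in control, 49.5, 56.5 and 57.3 under shRNA-143 and 42.3, 59.9 and 60.4 under shRNA-146. The shRNA-143 libraries were all above control, and shRNA-146 replicate 1 overlapped it. With the block the changes were 0.45 ± 0.14 and 0.43 ± 0.14 (adjusted p = 0.106 and 0.0977), and for the mean of both 0.44 ± 0.12 (adjusted p = 0.0586), just short of the threshold. Leaving out the libraries numbered 1 took the mean past it, to 0.48 with adjusted p = 0.0422 without the block and 0.0205 with it. The ratio of STIM2 to STIM1 per kilobase was 0.331 ± 0.0264 in control, 0.349 ± 0.0728 under shRNA-143 and 0.399 ± 0.0484 under shRNA-146. The shRNA-146 libraries, from 0.360, lay above control, at most 0.348, and the shRNA-143 libraries overlapped it. STIM1 shares 43 to 132 exon bases with each of 4 other annotated genes.

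The channel subunits did not pass in any comparison with all 9 libraries. ORAI1 (ENSG00000276045, chromosome 12, 121626550 to 121642677, plus strand), which forms the pore of the classical channel, was at 57.9, 47.7 and 59.1 CPM in control, 63.0, 39.0 and 47.8 under shRNA-143 and 41.3, 49.9 and 46.9 under shRNA-146. The groups overlapped, and the same-numbered ratios had both signs in each knockdown. Its changes with the block were -0.15 ± 0.17 and -0.24 ± 0.17 (adjusted p = 0.669 and 0.438). These were the most negative values of the 10 genes with each shRNA in that fit. With the libraries numbered 1 left out and the block kept they were -0.29 and -0.13 (adjusted p = 0.171 and 0.535).

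ORAI2 (ENSG00000160991, chromosome 7, 102433106 to 102456821, plus strand), a paralog that can join ORAI1 in mixed channels, differed most with the replicate number. It was at 25.1, 42.8 and 37.9 CPM in control, 26.2, 50.6 and 49.9 under shRNA-143 and 19.9, 55.3 and 57.8 under shRNA-146. The libraries numbered 1 held 19.9 to 26.2 CPM and all others 37.9 to 57.8. With the block the changes were 0.23 ± 0.17 for each shRNA (adjusted p = 0.486 and 0.460). Within numbers 2 and 3 alone the shRNA-146 difference was 0.49 (adjusted p = 0.0569 without the block and 0.0289 with it), while the same-numbered ratio for number 1 was -0.33. The ratio of ORAI2 to ORAI1 per kilobase was 0.0846 to 0.0984 in the libraries numbered 1 and 0.131 to 0.264 in the others. ORAI2 shares 584 exon bases with ALKBH4 on the opposite strand, a gene at 19.5 CPM in control.

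**Figure D3:**
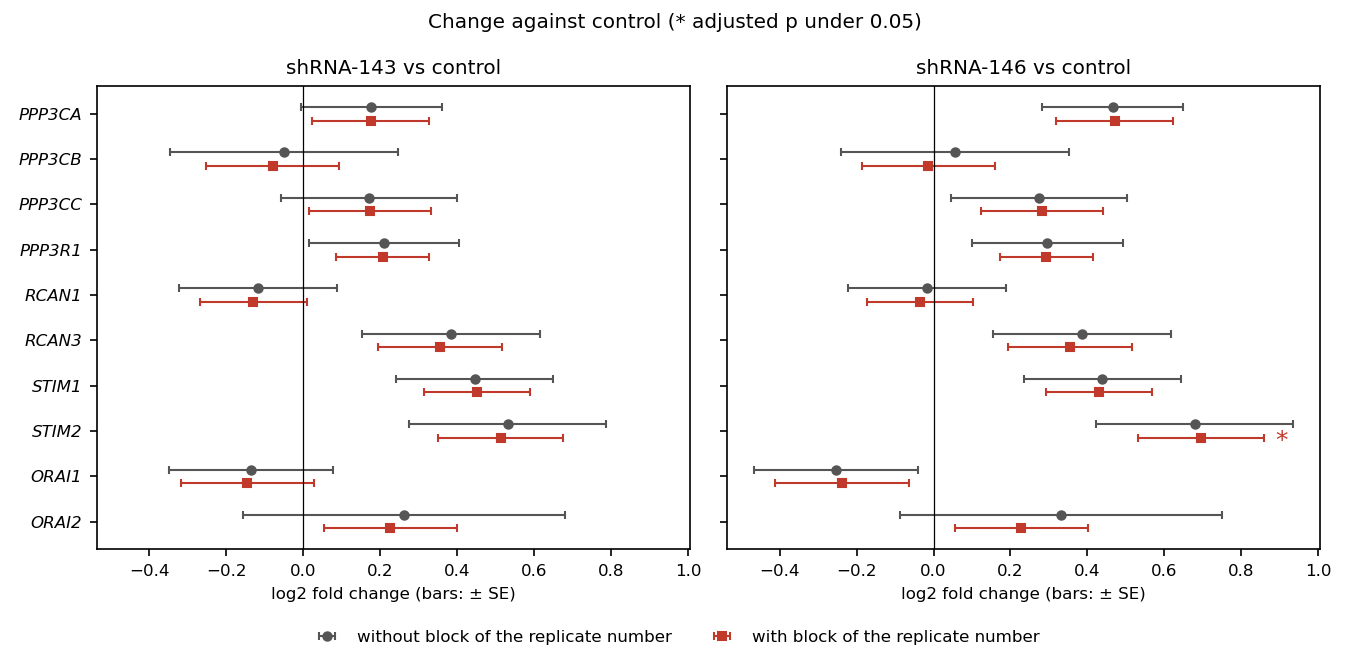
Log2 fold change of each gene against control (x axes) with shRNA-143 (left) and shRNA-146 (right); circles are from the fit without the block of replicate numbers and squares from the fit with it, and bars are ± SE (n = 3 libraries per group). The asterisk marks STIM2 with shRNA-146 in the fit with the block (0.70 ± 0.16), and the values of RCAN1 and PPP3CB lie near 0 in both panels.

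Counted as a group, the 10 genes gave 0 calls without the block in each of the 4 comparisons, where edgeR called 0.0467% of all tested genes for shRNA-143, 0.0334% for shRNA-146, 0.0334% for the mean of both and 0.0467% for shRNA-146 against shRNA-143. At an unadjusted p under 0.05 without the block, 0, 2, 2 and 0 of the 10 were found in the same order, against 6.8%, 8.81%, 9.34% and 3.75% of all tested genes. DESeq2 without the block called 0 of them in each, against 1.05%, 1.25%, 1.53% and 0.658% of the genes to which it gave an adjusted p. With the block 0 of 10 passed for shRNA-143, where 3.17% of all tested genes did (1.6% up and 1.57% down). For shRNA-146 the 1 of 10 that passed was up, as were 2.46% of all tested genes, with 1.96% down and 4.42% in all. For the mean of both it was again 1 of 10, up, against 2.98% up, 2.75% down and 5.74% in all, and for shRNA-146 against shRNA-143 it was 0 of 10, against 1.2%. The median log2 fold change of the 10 with the block was 0.19 for shRNA-143 and 0.29 for shRNA-146, against 0.00 and 0.02 over all tested genes, and 7 of 10 values were positive in each, against 50.5% and 52.3% of all genes. Both comparisons use the same control libraries. In CPM, RCAN3 and STIM1 with shRNA-143 and PPP3CA, RCAN3 and STIM2 with shRNA-146 lay wholly above control, 2 and 3 of 10, against 7.09% and 7.25% of all tested genes, and 0 of 10 lay wholly below it, against 8.11% and 7.46%. With the libraries numbered 1 left out and no block, 0, 1 and 2 of the 10 passed for shRNA-143, shRNA-146 and the mean of both, where 3.89%, 6.28% and 10.1% of 15155 tested genes did. With them left out and the block kept, 1, 3 and 3 of the 10 passed for shRNA-143, shRNA-146 and the mean of both (STIM2 in each, and STIM1 and ORAI2 in the last 2), where 10.4%, 13.9% and 19.1% of the tested genes did.

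Fold changes also followed gene length across the whole table, which touches the STIM genes. In 5 equal bins of deposited length, the median log2 change of all genes with the block, for both shRNAs averaged against control, was -0.22, -0.11, 0.01, 0.08 and 0.19 from the shortest to the longest bin. ORAI1, with 2262 bases, fell in the shortest bin, PPP3CC and PPP3R1 in the second, PPP3CA and PPP3CB in the third, RCAN1, RCAN3, STIM1 and STIM2 in the fourth, and ORAI2, with 11103 bases, in the longest. STIM2 (6909 bases) thus stood at 0.60 where genes of like length had a median of 0.08, and RCAN1 (6990 bases) at -0.08. ORAI1, at -0.19, lay close to the median of its bin. With a length trend removed from each library and the block kept, STIM2 was at 0.59 for shRNA-146 (adjusted p = 0.0608) and at 0.51 for the mean of both (adjusted p = 0.0584), so that neither call held, and STIM1 was at 0.34 for the mean (adjusted p = 0.124). As log2 deviations from the mean of the libraries, the medians of the longest bin lay between -0.32 (control replicate 1) and 0.22 (shRNA-143 replicate 2).

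**Figure D4:**
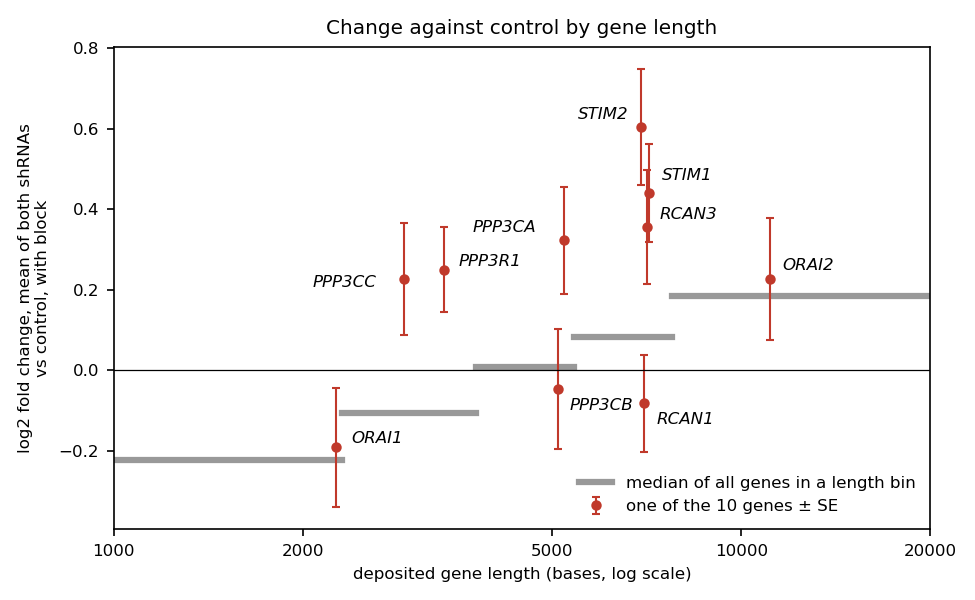
Log2 fold change of both shRNAs averaged against control, fitted with the block, (y axis) against deposited gene length in bases (x axis, log scale); points are the 10 genes with bars of ± SE, and grey lines are medians of all tested genes in 5 length bins, the outer bins running past the axis. The medians go from -0.22 to 0.19, and STIM2 at 0.60 lies farthest from the median of its own bin, 0.08.

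The rest of the pathway was read from 8 lists holding 87 genes, of which 79 were tested and 8 did not pass the filter on low counts. Without the block 0 genes of any list passed in any comparison. With the block, 1 of the 8 tested genes that regulate, inhibit or anchor calcineurin fell in each knockdown, where 1.57% and 1.96% of all tested genes fell. That gene was TBC1D10C, which encodes carabin, an inhibitor of calcineurin and of Ras: it was at 3.58, 4.28 and 5.23 CPM in control, 1.59, 2.03 and 2.47 under shRNA-143 and 0.838, 1.76 and 2.57 under shRNA-146. All knockdown libraries were below all control libraries, by -1.11 ± 0.24 and -1.41 ± 0.25 with the block (adjusted p = 0.0357 and 0.0132), and by -1.10 ± 0.39 and -1.33 ± 0.39 without it (adjusted p = 0.600 and 0.419). When a single library was left out with the block, the values ran from -1.23 to -0.95 for shRNA-143 and from -1.63 to -1.16 for shRNA-146. The shRNA-143 call was lost without any library other than shRNA-146 replicates 1 and 3 (adjusted p = 0.0642 to 0.226), and the shRNA-146 call without any 1 of the 3 control libraries (adjusted p = 0.0634 to 0.0788). The shRNA-143 call was also lost by library size alone (adjusted p = 0.0838). TBC1D10C is scarce and shares 186 exon bases with PPP1CA on the opposite strand, a gene at 321 CPM in control.

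Among the 13 tested genes of store-operated entry, STIM2 was the 1 that passed with the block, with shRNA-146, and 0 passed with shRNA-143; the list's median for shRNA-146 was 0.11, against 0.02 for all tested genes. Of the 18 tested genes of calcium release, calcium pumps and phospholipase C, 3 rose with shRNA-146 with the block and 0 fell, where 2.46% and 1.96% of all tested genes did, and 0 passed with shRNA-143. The list's median was 0.32 with shRNA-146 and 0.27 with shRNA-143, against 0.02 and 0.00 for all tested genes. The list holds long genes, such as ITPR1 with 32454 exon bases and RYR3 with 20370, beside shorter ones such as ATP2A1 with 4587. All genes of the longest length bin had medians of 0.21 with shRNA-146 and 0.16 with shRNA-143. How far the list's medians follow gene length was not tested. The 3 that rose with shRNA-146 were the pump that refills the endoplasmic reticulum, ATP2A2 (0.65 ± 0.12, adjusted p = 0.0194), the plasma membrane pump ATP2B4 (0.60 ± 0.14, adjusted p = 0.0381) and the phospholipase PLCB2 (0.80 ± 0.18, adjusted p = 0.0363). ATP2A2 went from 282 ± 45.3 CPM in control to 439 ± 37.1 with shRNA-146, and ATP2B4 from 51.5 ± 7.93 to 77.6 ± 6.60. PLCB2 was at 16.6, 38.8 and 45.8 CPM in shRNA-146 replicates 1 to 3, overlapping control at 12.5 to 25.4 CPM. The inositol trisphosphate receptor gene ITPR1, which releases stored calcium, was the 1 gene of the lists that passed between the shRNAs in the fit of all 9 libraries with the block, where 1.2% of all tested genes did: it was at 55.8 ± 22.8 CPM with shRNA-143 and 28.4 ± 8.59 with shRNA-146, against 38.0 ± 6.96 in control, a difference of -0.94 ± 0.17 (adjusted p = 0.0262 with the block). These fitted values kept their direction when any single library was left out with the block, from 0.57 to 0.70 for ATP2A2, 0.46 to 0.68 for ATP2B4, 0.58 to 0.96 for PLCB2 and -1.12 to -0.81 for ITPR1, but calls were lost. Those of ATP2A2, ATP2B4 and PLCB2 were lost without any 1 of the control libraries, shRNA-143 replicate 2 or shRNA-146 replicate 2, those of ATP2B4 and PLCB2 also without shRNA-143 replicate 3, and that of PLCB2 also without shRNA-146 replicate 3 (adjusted p = 0.0505 to 0.175 in all). With the length trend removed ATP2A2 was at 0.40, ATP2B4 at 0.42 and PLCB2 at 0.69 (adjusted p = 0.0889, 0.103 and 0.0553). The ITPR1 call was lost without control replicate 2, shRNA-143 replicates 2 or 3 or shRNA-146 replicate 2 (adjusted p = 0.0972 to 0.215) and by library size alone (adjusted p = 0.0765). Against control ITPR1 passed with neither shRNA in the fit with the block. It was at 0.47 ± 0.17 for shRNA-143 and -0.47 ± 0.17 for shRNA-146 (adjusted p = 0.152 and 0.126).

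Of 10 calmodulin and calmodulin-dependent kinase genes, CAMK2D rose with shRNA-146 (0.69 ± 0.15, adjusted p = 0.0313 with the block), and the list's median was 0.02, against 0.02 for all tested genes. That value lay between 0.55 and 0.81 when single libraries were left out with the block, and the call was lost without any 1 of the control libraries, shRNA-143 replicates 2 or 3 or shRNA-146 replicate 2 (adjusted p = 0.0588 to 0.126), and with the length trend removed (0.57, adjusted p = 0.0647). CAMK2D was at 72.4, 41.7 and 31.4 CPM in shRNA-146 replicates 1 to 3, overlapping control at 24.1 to 35.2 CPM. In the list of 5 NFAT factors, NFATC2, the target of the shRNAs, was the 1 that passed, and the 10 tested NFAT kinase and retention genes and 11 tested calcineurin substrates other than NFAT gave 0 calls with either shRNA. Without the libraries numbered 1 and with the block, more genes passed, in the lists as over the whole table, where 5.6% rose and 4.8% fell with shRNA-143 and 7.69% rose and 6.24% fell with shRNA-146. In the calcium release, pump and phospholipase list 7 rose and 1 fell with shRNA-143 and 5 rose with shRNA-146, and TBC1D10C still fell in both, by 1.07 and 1.14. Among the NFAT kinase and retention genes CSNK1E rose with shRNA-143 (0.43), among the other substrates CRTC1 (0.70) and CRTC3 (0.56) rose and MEF2C fell (-0.48) with shRNA-143, and NFATC1 (0.59), CAMK2D (0.52) and CAMK1D (0.63) rose with shRNA-146. Between the shRNAs ITPR1 (-1.05) and ATP2A3 (0.78) passed, where 2.1% of all tested genes did, and the subunit list had 0 calls for each shRNA.

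For STIM2, the genes with the most similar profile over the 9 libraries were PHC3, a Polycomb component (Pearson r = 0.983 of log2 CPM), and ZEB2, a transcription factor of myeloid cells (r = 0.980). PHC3 was at 15.9 ± 2.88 CPM in control, 21.3 ± 5.70 under shRNA-143 and 23.5 ± 3.77 under shRNA-146. ZEB2 was at 72.6 ± 11.3, 102 ± 34.1 and 125 ± 12.2 CPM. The best match of each of the other 9 genes had r = 0.961 to 0.997, so correlations this high were common among the 10 genes. They are a description over 9 libraries that share replicate numbers and the length trend given above.

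The authors' deposited table gave STIM2 a log2 fold change of 0.69 with shRNA-146 (adjusted p = 0.490) and 0.55 with shRNA-143 (adjusted p = 0.716). In the authors' deposited table STIM1 was at 0.46 and 0.45 with shRNA-143 and shRNA-146 (adjusted p = 0.578 and 0.827). None of the 10 genes was among the 139 and 60 genes under an adjusted p of 0.05 in the authors' deposited tables.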

How the data were processed

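The authors deposited raw counts per gene for 9 libraries, with no replicates pooled, and per the submitters' processing notes fastp, STAR 2.5, featureCounts, DESeq2 and hg38 were named, without their roles; the sources used here do not state strand handling. The authors also deposited, per the file headers, log2 fold changes, p-values and adjusted p-values of each shRNA against control, and gene lengths that equal the exon unions of GENCODE 29 for all 10 genes. Counts in those tables equalled the count table. The 10 genes and the pathway lists were chosen with earlier results of these data known. Besides them the text names NFATC2, list genes past the threshold, paralogs outside the 10 and, for genes past the threshold, the 2 most similar genes.

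Counts were tested with edgeR 4.0.16 in R 4.3.3 (filterByExpr, TMM, robust glmQLFit, glmQLFTest) in a single fit of all 9 libraries, with Benjamini-Hochberg adjustment over 14975 genes and a threshold of 0.05. The main fit had no block (6 residual degrees of freedom). Every library correlated best with its own replicate number (9 of 9), and the same-number correlations (0.252 to 0.758) all exceeded 0.1. Pairs with unlike numbers (-0.678 to 0.535) also reached above 0.1 and above the lowest of these. By the criterion of 0.1 a blocked fit, with 4 residual degrees of freedom, is given beside the main fit. What same-numbered libraries have in common is not in the labels. No pair of libraries agreed within sampling noise (chi-square per degree of freedom of at least 20.3). Alternatives were library size alone, median-of-ratios factors, no filter, DESeq2 1.42.0, a length trend (lowess span 0.3) removed, each library left out, and the libraries numbered 1 left out. The fits were tested on simulated data. The smallest library held 40047459 counts. Counting error depends on the count of each gene and weighs more for scarce genes, such as PPP3CC and TBC1D10C.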

Additional observations from a re-analysis of the deposited data

How the results depend on the processing

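The values of the report were recomputed under 30 other settings. In order for shRNA-143, shRNA-146 and the mean of both against control and for shRNA-146 against shRNA-143, edgeR called 7, 5, 5 and 7 of all genes without the replicate block and 474, 662, 859 and 179 with it. The block with library size alone gave 414, 835, 858 and 186, with median-of-ratios factors 485, 680, 859 and 177, without a filter 1240, 1653, 1946 and 436, with DESeq2 1001, 1400, 1642 and 374, and with the length trend removed 415, 491, 636 and 204. DESeq2 without the block gave 151, 162, 203 and 89. Library size alone without the block gave 16 for shRNA-143 and 2 for shRNA-146, and median-of-ratios factors 3 for shRNA-146. Leaving out the libraries numbered 1 gave 589, 951, 1525 and 160 without the block and 1575, 2111, 2902 and 319 with it. Leaving out single libraries, without or with the block, gave 1 to 2099, 0 to 1745, 0 to 3075 and 0 to 344.

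Of the 10 genes 0 passed without the block when all 9 libraries were used. For shRNA-146, 1 passed with the block, 2 with library size alone and the block (STIM2, and PPP3CA at adjusted p = 0.0455), 1 each with the block and median-of-ratios factors, no filter or DESeq2, and 1 without and 3 with the block when the libraries numbered 1 were left out. For the mean of both, the same 7 settings gave 1, 1, 1, 2, 2, 2 and 3, and for shRNA-143 the last setting gave 1. Leaving out single libraries gave 0 to 2 for shRNA-143 and 0 to 3 each for shRNA-146 and the mean. With the block and the length trend removed 0 passed. With TMM scaling, the filter and all 9 libraries, the block changed no call of the 10 other than those of STIM2.

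No value of STIM1, STIM2, RCAN3, PPP3CA, PPP3CC, PPP3R1 or ORAI2 against control changed sign under any setting. PPP3CB against control had no stable sign. For shRNA-146 it was -0.014 with the block, -0.0065 with the block and median-of-ratios factors, -0.025 with the block and no filter, -0.0066 in DESeq2 with the block, -0.046 with the length trend removed, and -0.30 without and -0.29 with the block when the libraries numbered 1 were left out. For the mean of both it was, in the same order, -0.047, -0.035, -0.055, -0.035, -0.078, -0.24 and -0.24, and -0.0067 without a filter or block. For shRNA-143 it was 0.034 and 0.023 by library size alone without and with the block. Leaving out single libraries gave -0.27 to 0.080 for shRNA-143, -0.36 to 0.23 for shRNA-146 and -0.24 to 0.11 for the mean. RCAN1 was at 0.10 without and with the block by library size alone for shRNA-146, and at 0.037 and 0.035 for the mean, and without single libraries it ran from -0.20 to 0.066 and from -0.20 to 0.0019. ORAI1 for shRNA-143 was at 0.0041 with the length trend removed and ran from -0.36 to 0.014 without single libraries.

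Between the shRNAs the differences were small, and many signs turned. RCAN3 was at -0.0043 in DESeq2, -0.0069 in DESeq2 with the block, -0.0042 and -0.0069 with median-of-ratios factors without and with the block, -0.0043 and -0.0039 without a filter, without and with the block, -0.020 with the length trend removed, and -0.0079 and -0.0084 when the libraries numbered 1 were left out, without and with the block. ORAI2 was, with the block, at -0.0065 in DESeq2, -0.0063 with median-of-ratios factors, -0.0016 without a filter and -0.052 with the length trend removed. STIM1 was at 0.047 and 0.023 by library size alone, without and with the block. Without the libraries numbered 1, and without and with the block, STIM1 was at 0.074 in both, ORAI1 at 0.15 and 0.16, and PPP3CB at -0.11 in both. Leaving out single libraries gave -0.19 to 0.19 for RCAN3, -0.18 to 0.42 for ORAI2, -0.11 to 0.14 for STIM1, -0.29 to 0.11 for ORAI1, -0.30 to 0.30 for PPP3CB, -0.0055 to 0.25 for PPP3CC, -0.043 to 0.22 for PPP3R1, -0.082 to 0.23 for RCAN1, -0.064 to 0.30 for STIM2 and -0.20 to 0.61 for NFATC2. The cause of these changes was not tested. With 215 to 346 counts per library, PPP3CC was the gene most limited by depth.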
